A study of Mus musculus with 20 samples.

Results

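The 40 genes described here are interferon-stimulated genes, measured by RNA-seq in the cerebellum of 20 mice in 5 conditions. They were given as a list of symbols, with no measured value in the rule, but earlier results of these data were known when the list was chosen. Each symbol was matched to its Ensembl identifier in the count table. All 40 were found, of 55401 genes in the table and 21897 genes that are protein-coding.

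The study treated mice with an adeno-associated virus (AAV) of serotype PHP.eB, which reaches the brain from the blood and carries an eGFP cassette under a CMV promoter and a short hairpin RNA under an H1 promoter. The hairpin was shA4, directed against CAG repeats, or shSCR, with a scrambled sequence. All mice were on the C57BL/6J strain, and each library holds the RNA of the cerebellum of 1 mouse. At the time labelled 9 weeks there were 3 AAV-shA4-treated WT mice and 3 untreated WT mice. At the time labelled 25 weeks there were 4 untreated WT mice, 5 SCA7 mice treated with AAV-shA4 and 5 treated with AAV-shSCR. SCA7 mice carry the SCA7 140Q/5Q knock-in, an expanded CAG repeat in an Atxn7 allele that models spinocerebellar ataxia. The labels do not say from when the weeks count. The study's text counts from injection and gives a smaller number than the label for the later mice, so the weeks are used here as names of the 2 time points. Per the study's methods, vectors were injected into the retro-orbital sinus of young mice and untreated mice received saline. At 25 weeks every SCA7 mouse had received a vector and no WT mouse had, so vector and genotype cannot be told apart there, and the hairpins can be compared only within SCA7 mice. In the same way, age, time since injection and any batch between the 9-week and 25-week libraries cannot be told apart.

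Interferons are secreted proteins that bind receptors on the cell surface and, through JAK kinases, activate STAT transcription factors. Type I and type III interferons lead to a complex with STAT2 and IRF9 that binds the interferon-stimulated response element in promoters and turns on genes for sensors and effectors against viruses. In the brain, neurons, microglia, astrocytes and endothelial cells can all respond to interferon, and a low basal activity of the pathway is known in healthy tissue.

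Depth ranged from 31465586 to 54570503 counts per library. Values are given as CPM, counts scaled to library size with TMM factors. Atxn7 (ENSMUSG00000021738), the gene whose expanded allele the hairpin was made to lower, stood at 38.7, 43.1 and 37.6 CPM in untreated WT mice of 9 weeks and at 38.2, 41.3 and 41.0 CPM in those given AAV-shA4. At 25 weeks it stood at 44.4, 47.5, 49.6, 47.5 and 51.7 CPM in AAV-shA4-treated SCA7 mice, at 45.6, 53.4, 48.1, 50.5 and 49.98 CPM in AAV-shSCR-treated SCA7 mice and at 45.7, 50.2, 49.3 and 48.8 CPM in untreated WT mice. The 3 groups of 25 weeks overlapped, and these counts do not separate the alleles, so this gene does not check the labels of the hairpins. Between the hairpins its log2 fold change was −0.04 ± 0.05 (SE), with an adjusted p = 0.842 by edgeR's quasi-likelihood test.

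Called genes are those with an adjusted p under 0.05 in edgeR's quasi-likelihood test and a change of more than 1.3 times, up or down. In AAV-shSCR-treated SCA7 mice against untreated WT mice, 16 of 40 members were called, all higher, where 1.35% of 14862 tested genes were called higher and 2.66% lower. Against the same WT mice, SCA7 mice with AAV-shA4 had 10 called members, all higher, beside 1.18% of tested genes higher and 2.27% lower. The 2 comparisons share their 4 WT mice, so their values are given side by side and neither is a second test of the other. The median log2 fold change of the 40 members was 0.45 for AAV-shSCR, with 39 of 40 above 0, and 0.34 for AAV-shA4, also with 39 of 40 above 0. Over all genes tested these medians were 0.0017 and 0.0061, with 50.5% and 52.2% of genes above 0. By DESeq2 20 members were called with AAV-shSCR and 14 with AAV-shA4. The percentages of tested genes above are edgeR's, and no share over all genes is given for DESeq2.

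These counts moved with single mice, and no share over all genes is given beside the counts of the fits below. Without untreated WT mouse 1 of 25 weeks, 10 members were called with AAV-shSCR, and without AAV-shA4-treated SCA7 mouse 2, 6 were called with AAV-shA4. With AAV-shSCR-treated mice 1 and 2 left out together, a choice made after the values were seen that by itself lowers this group, 5 were called with AAV-shSCR and 37 of 40 were above 0, with a median of 0.30. Called in each of the 9 fits that left out 1 library were Irf7, Sp100, Oasl2, Eif2ak2, Parp12, Ifi27, Ifi27l2a, Rtp4, Xaf1 and Lgals3bp with AAV-shSCR. With AAV-shA4 they were Irf7, Eif2ak2, Ifi27, Ifi27l2a, Rtp4 and Xaf1.

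Between the hairpins, AAV-shA4 against AAV-shSCR in SCA7 mice, edgeR's quasi-likelihood test called 0 of 40 members, and 0% of 14862 genes in either direction. At an unadjusted p under 0.05 there were 2 members, against 8.22% of tested genes, and DESeq2 called 0. The median was −0.07, with 11 members above 0 and 29 below, against 0.00021 and 50.1% above 0 over all genes. Leaving out 1 library moved the median from −0.15, without AAV-shA4-treated mouse 2, to 0.026, without AAV-shSCR-treated mouse 2, where 24 of 40 members were above 0. Missing the threshold does not show that the hairpins act alike on these genes.

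In AAV-shA4-treated against untreated WT mice of 9 weeks, edgeR's quasi-likelihood test called 0 of 40 members, where 0.0475% of 14733 tested genes passed as higher and 0.00679% as lower. There were 4 members at an unadjusted p under 0.05, against 11.1% of tested genes, and DESeq2 called 0. The median was 0.09 and 31 of 40 members were above 0, against −9.9e-05 and 49.9% over all genes.

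Summed markers of 3 of 14 cell type lists did not overlap between these mice. Among 15095 single genes, 7.51% were all higher with AAV-shA4 and 8.42% all lower. Oligodendrocyte markers, led by Mbp, summed to 7799, 7653 and 7465 CPM with AAV-shA4 and 8262, 8105 and 8388 CPM without, with 9 of 11 below 0. Markers of Bergmann glia and astrocytes, led by Aldoc, summed to 7629, 7223 and 7449 CPM against 7142, 6714 and 7052 CPM, with 10 of 12 above 0. Those of B and plasma cells, led by Jchain, summed to 1.11, 1.32 and 1.67 CPM against 1.08, 0.914 and 1.02 CPM, and 1 of 8 could be tested. No marker of these lists was at 0 in all libraries. EdgeR's quasi-likelihood test and DESeq2 called 0 in each of these 3 lists, with 4, 5 and 1 at an unadjusted p under 0.05. Endothelial and blood sums overlapped. Of 12 endothelial markers 8 were below 0, with 3 at an unadjusted p under 0.05, and DESeq2 called 1 lower where edgeR called 0. All 5 blood markers were below 0, with a median of −0.80, 2 at an unadjusted p under 0.05 and 0 called by either method. In bulk tissue, fewer cells of a type and less RNA per cell cannot be told apart, and the part of these markers in the members' values was not tested.

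Between untreated WT mice of 25 and 9 weeks, 8 of 40 members were called, all higher at 25 weeks, where 3.29% of 15095 tested genes passed as higher and 1.99% as lower. The median was 0.39 and 39 of 40 members were above 0, against 0.0047 and 51% over all genes. By DESeq2 9 were called. By edgeR the count was 3 without untreated WT mouse 1 of 9 weeks. It was 5 without untreated WT mouse 4 of 25 weeks and 15 without untreated WT mouse 1 of 25 weeks. No share over all genes is given beside the counts of DESeq2 or of these fits. Ifit2, Trim30a and Ifih1 were called in each of the 7 fits that left out 1 library.

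Summed markers of 5 of 14 cell type lists did not overlap between the same untreated mice. Among 15095 single genes, 16.5% were all higher at 25 weeks and 16.9% all lower, so such separation was common in this comparison. Microglia markers summed to 291, 295 and 310.2 CPM at 9 weeks and 377, 340.5, 346 and 333 CPM at 25 weeks. Of these 20 markers 18 were above 0 and 8 had an unadjusted p under 0.05. Ctss, a lysosomal protease, was called higher at 0.67 ± 0.14 (SE), and Fcrls, a receptor-like surface protein, lower at −0.66 ± 0.13 (SE). Oligodendrocyte markers, with Mbp the most abundant, summed to 8262, 8105 and 8388 CPM at 9 weeks and 6844, 5784, 6704 and 5934 CPM at 25 weeks, and 6 of 11 were called lower. Granule cell markers, led by Cbln3, summed to 8232, 8001 and 7325 CPM and 6003, 7132, 7008 and 6907 CPM. Of these 9 the synaptic organizer Cbln1 and the glutamate transporter Slc17a7 were called lower, at −0.50 ± 0.06 (SE) and −0.43 ± 0.06 (SE). Markers of pericytes and smooth muscle, led by Vtn, summed to 318, 316 and 318 CPM and 309, 309, 299 and 268 CPM, with the actin Acta2 called lower at −0.55 ± 0.18 (SE). Purkinje cell markers, led by Itpr1, were the other list with higher sums at 25 weeks, at 11288, 10631 and 11104 CPM and 11325, 12760.4, 11879.6 and 11830.4 CPM, and 7 of 11 were above 0 with 2 at an unadjusted p under 0.05.

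In lists whose sums overlapped, the meningeal collagens Col3a1 and Col1a1 were called lower, at −1.06 ± 0.14 (SE) and −0.82 ± 0.17 (SE), and Lum, a matrix proteoglycan, higher at 0.43 ± 0.14 (SE). Fabp7, a fatty acid binding protein of Bergmann glia and astrocytes, was called lower at −0.77 ± 0.12 (SE), and Csf3r, a receptor of neutrophils, higher at 0.43 ± 0.15 (SE). No marker named was at 0 in all libraries. The part of these markers in the members' difference was not tested.

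The AAV-shA4 difference in SCA7 mice of 25 weeks was also compared with that in WT mice of 9 weeks, which differ in genotype and in time. This test of the difference called 0 of 40 members with edgeR's quasi-likelihood test, where 0.682% of 15095 genes passed as higher and 1.82% as lower. There were 9 members at an unadjusted p under 0.05, against 18.5% of tested genes, and DESeq2 called 1, Ifi27, with a log2 difference of 0.77 and an adjusted p = 0.0407. The median was 0.23 with 31 of 40 above 0, against 0.00086 and 50.2% over all genes. In fits that left out 1 library, edgeR called 0 or 1 member. It was Ifi27 without AAV-shA4-treated WT mouse 2, untreated WT mouse 1 of 9 weeks or AAV-shA4-treated SCA7 mouse 3, and Irf7 without untreated WT mouse 4 of 25 weeks. So a call in SCA7 mice of 25 weeks beside none in WT mice of 9 weeks is not shown by edgeR with all libraries to be a difference between them for any of the 40 members.

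**Figure D1:**
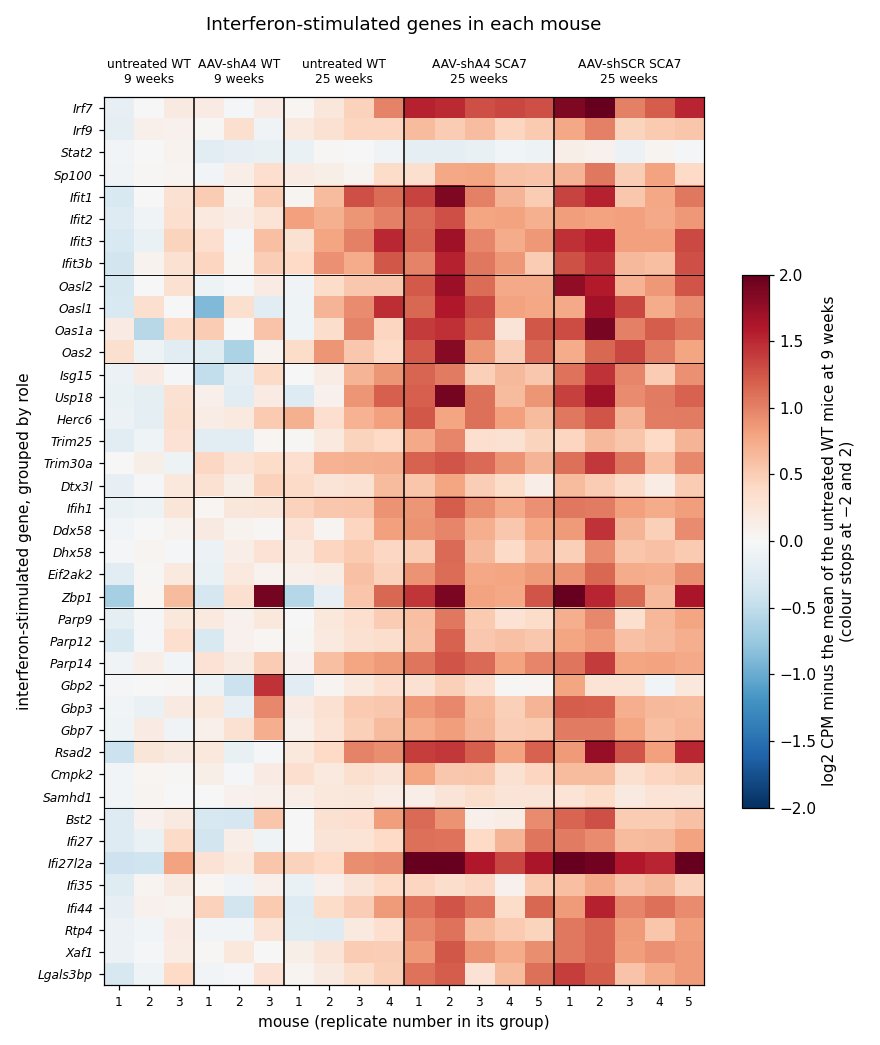
Heat map of the 40 members (vertical axis, by role) in the 20 mice (horizontal axis, by group). Colour is log2 CPM minus the mean of the untreated WT mice of 9 weeks, and the scale stops at 2 in both directions; AAV-shSCR-treated mouse 2 and AAV-shA4-treated SCA7 mouse 2 are the highest of their groups for 26 and 29 members.

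Mice of a group differed from one another across the members. Taking for each mouse the median over the members of its log2 CPM minus the mean of the untreated WT mice of its time point, the AAV-shSCR-treated SCA7 mice stood at 0.50, 0.78, 0.33, 0.23 and 0.40. The AAV-shA4-treated SCA7 mice stood at 0.51, 0.73, 0.31, 0.11 and 0.31, and the untreated WT mice of 25 weeks at −0.24, −0.07, 0.10 and 0.24. Mouse 2 was the highest in each treated group and mouse 4 the lowest, below the highest WT mouse. At 9 weeks the medians were 0.04, 0.07 and 0.28 in AAV-shA4-treated and −0.16, 0.00021 and 0.18 in untreated WT mice, and the groups overlapped. Members above the highest untreated mouse of their time point numbered 31, 37, 23, 22 and 27 in the AAV-shSCR-treated mice and 29, 37, 26, 12 and 25 in the AAV-shA4-treated SCA7 mice. Members below the lowest untreated mouse numbered 0, 0, 0, 1 and 0 with AAV-shSCR and 2, 1, 1, 0 and 1 with AAV-shA4. In the AAV-shA4-treated WT mice 10, 9 and 22 members were above the highest untreated mouse and 10, 9 and 1 below the lowest. No share over all genes is given beside these counts of single mice.

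Groups that did not overlap were counted over 15095 genes. Every AAV-shSCR-treated mouse was above every untreated WT mouse for 14 of 40 members, where 7.39% of genes were all higher and 9.22% all lower. For AAV-shA4 in SCA7 mice this held for 8 members, against 5.48% of genes all higher and 7.82% all lower. Between untreated mice of 25 and 9 weeks it held for 12 members, against 16.5% of genes all higher and 16.9% all lower. For AAV-shA4 in WT mice of 9 weeks 2 members were all higher, Trim30a and Parp14, and 1 was all lower, Stat2, against 7.51% and 8.42% of genes. Between the hairpins all 40 members overlapped, where 0.768% of genes were all higher and 0.709% all lower with AAV-shA4.

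Interferon ligands were at or near 0. Of 21 genes for interferons in the table, 17 had 0 counts in all libraries, Ifnb1 among them, and 4 had any count, with at most 2 counts in a library. Ifng had 1 count in AAV-shA4-treated WT mouse 3 and 1 in AAV-shSCR-treated mouse 1. None of the 21 was abundant enough to be tested. A count of 0 allows up to 3 counts, which is 0.0563 to 0.0952 CPM depending on the library and covers counting error alone.

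Among 11 genes for receptors and JAK-STAT signalling, 2 were called higher with AAV-shSCR, 0 with AAV-shA4 in SCA7 mice and 0 between the time points. For AAV-shA4 there were 4 at an unadjusted p under 0.05 by edgeR's quasi-likelihood test and DESeq2 called 0, and between the time points there were 5 and DESeq2 called 0. The type I receptor chains Ifnar1 and Ifnar2 had log2 fold changes of −0.018 and 0.066 with AAV-shSCR and were not called. Ifnlr1, a chain of the type III receptor, was called with AAV-shSCR, at a level of 0.406 to 0.737 CPM with AAV-shSCR against 0.159 to 0.413 CPM in untreated WT mice.

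Upstream of the ligands, 16 sensors and adaptors of interferon induction had 0 called in either SCA7 group by edgeR's quasi-likelihood test, with 0 at an unadjusted p under 0.05 with AAV-shSCR, 1 with AAV-shA4 and 0 called by DESeq2. In untreated WT mice of 25 against 9 weeks 2 of the 16 were called higher, the Toll-like receptors Tlr3 and Tlr4, with log2 fold changes of 0.45 and 0.68. Irf3, which turns on interferon genes when a sensor is triggered, had −0.14 with AAV-shA4 in SCA7 mice (adjusted p = 0.0489 by edgeR's quasi-likelihood test), under the limit on fold change. Irf1, a factor induced by interferon gamma, had 0.26 with AAV-shSCR and was not called. Neither the other 7 interferon regulatory factors nor the 10 tested of 11 negative regulators of the pathway had a call in the SCA7 groups by edgeR's quasi-likelihood test or DESeq2. With AAV-shSCR these lists had 0 and 4 genes at an unadjusted p under 0.05, and with AAV-shA4 0 and 3.

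Of the 4 members that are transcription or nuclear factors, 2 were called with either hairpin against WT mice, Irf7 and Sp100. Irf7, which drives further interferon transcription, stood at 12.9, 14.8, 7.07, 8.15 and 10.1 CPM in AAV-shSCR-treated mice 1 to 5 and at 10.2, 9.87, 8.60, 8.86 and 8.57 CPM in AAV-shA4-treated SCA7 mice 1 to 5. In untreated WT mice 1 to 4 of 25 weeks it stood at 3.62, 4.14, 4.87 and 7.02 CPM. Every SCA7 mouse was above every WT mouse, with AAV-shSCR-treated mouse 3 closest to WT mouse 4, the highest of its group. The log2 fold change was 1.11 ± 0.21 (SE) with AAV-shSCR (adjusted p = 0.00124) and 0.92 ± 0.20 (SE) with AAV-shA4 (adjusted p = 0.00623), by edgeR's quasi-likelihood test. At 9 weeks Irf7 stood at 3.94, 3.42 and 3.97 CPM in AAV-shA4-treated and 3.14, 3.50 and 3.98 CPM in untreated WT mice, which overlapped. Sp100, a protein of PML nuclear bodies, had 0.53 ± 0.13 (SE) with AAV-shSCR and 0.44 ± 0.13 (SE) with AAV-shA4, and the AAV-shSCR-treated mice were all above the WT mice. Its call with AAV-shA4 stood in 4 of the 9 fits that left out 1 library.

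Irf9, the DNA-binding partner of STAT2, stood at 27.8, 32.9, 22.3, 23.4 and 23.9 CPM with AAV-shSCR, 25.2, 23.2, 24.97, 21.9998 and 23.6 CPM with AAV-shA4 and 18.6, 20.2, 22.1 and 22.1 CPM in untreated WT mice of 25 weeks. The AAV-shSCR-treated mice were all above the WT mice, mouse 3 by a narrow margin, and the AAV-shA4-treated mice overlapped them through mouse 4. With AAV-shSCR its log2 fold change was 0.33 ± 0.10 (SE) (adjusted p = 0.0260 by edgeR's quasi-likelihood test), under the limit on fold change. Without AAV-shSCR-treated mouse 3 it was 0.38 and was called. At 9 weeks Irf9 stood at 16.6, 20.4 and 15.5 CPM in AAV-shA4-treated and 14.4, 17.5 and 17.3 CPM in untreated WT mice, overlapping, and the untreated mice of 25 weeks were all above those of 9 weeks. That difference was 0.34 ± 0.12 (SE) (adjusted p = 0.0379 by edgeR's quasi-likelihood test), again under the limit. It was called without untreated WT mouse 2 of 9 weeks, at 0.39, and without untreated WT mouse 1 of 25 weeks, at 0.39.

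Stat2, the partner of IRF9 in the complex, had the highest level per kb of the members and was not called in any comparison. It stood at 100.3, 105 and 107 CPM in AAV-shA4-treated and 113, 117 and 124 CPM in untreated WT mice of 9 weeks, the treated mice all below. In SCA7 mice of 25 weeks it stood at 103, 102.3, 106, 113 and 109.5 CPM with AAV-shA4 and 127, 125, 109, 122 and 116 CPM with AAV-shSCR, against 107, 119, 117 and 112 CPM in untreated WT mice, and these groups overlapped. By edgeR's quasi-likelihood test the log2 fold change was −0.18 ± 0.05 (SE) at 9 weeks (adjusted p = 0.271) and −0.17 ± 0.04 (SE) between AAV-shA4 and AAV-shSCR (adjusted p = 0.405). Neither passed the adjustment, although Stat2 had the smallest unadjusted p of the members in both.

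The 4 members of the IFIT family bind foreign RNA and lie next to one another on chromosome 19. None was called in the SCA7 groups by edgeR's quasi-likelihood test or DESeq2, with 0 at an unadjusted p under 0.05, and 3 of 4, Ifit2, Ifit3 and Ifit3b, were called between the time points. The difference between these comparisons was not tested. Ifit2 stood at 4.54, 5.18 and 6.85 CPM in untreated WT mice of 9 weeks and 9.64, 8.89, 10.03 and 10.9 CPM in those of 25 weeks, which did not overlap. The other mice of 25 weeks stood at 9.67, 9.55, 9.58, 9.20 and 9.95 CPM with AAV-shSCR and 11.9, 13.3, 9.44, 9.52 and 8.95 CPM with AAV-shA4, and those of 9 weeks with AAV-shA4 at 6.22, 5.95 and 6.602 CPM. All 14 mice of 25 weeks were above all 6 of 9 weeks. Between the time points Ifit2 had a log2 fold change of 0.84 ± 0.13 (SE) (adjusted p = 0.000150 by edgeR's quasi-likelihood test), against −0.041 ± 0.10 (SE) with AAV-shSCR and 0.11 ± 0.10 (SE) with AAV-shA4.

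Ifit3 stood at 5.18, 5.81 and 8.68 CPM in untreated and 8.04, 6.24 and 9.66 CPM in AAV-shA4-treated WT mice of 9 weeks. At 25 weeks it stood at 7.88, 11.02, 12.9 and 18.1 CPM in untreated WT mice, 17.6, 19.0, 11.3, 11.3 and 15.9 CPM with AAV-shSCR and 14.3, 20.8, 12.6, 10.7 and 11.6 CPM with AAV-shA4. Untreated WT mouse 1 of 25 weeks lay within the range of the mice of 9 weeks, and untreated WT mouse 4 among the highest SCA7 mice. Between the time points the log2 fold change was 0.92 ± 0.27 (SE) (adjusted p = 0.0175 by edgeR's quasi-likelihood test). The call was lost without untreated WT mouse 1 or 2 of 9 weeks, at 0.78 and 0.84, and without untreated WT mouse 4 of 25 weeks, at 0.68. Of its stretches of 49 bases 51.7% are shared with Ifit3b, so counts of these 2 genes are uncertain where they could be split.

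In the OAS family, whose products make or resemble makers of oligoadenylates that activate RNase L, 2 of 4 were called with AAV-shSCR and 1 of 4 with AAV-shA4. Oasl2 had 0.94 ± 0.23 (SE) and 0.80 ± 0.23 (SE), and in both groups every SCA7 mouse was above every WT mouse. Oas1a, with 0.86 and 0.72, was called with AAV-shSCR alone when all libraries were in, at 0.958 to 1.78 CPM against 0.450 to 0.952 CPM in untreated WT mice. Of the 9 fits that left out 1 library, it was called in 3 with AAV-shSCR and in 2 with AAV-shA4. In its sequence 58.1% of the stretches of 49 bases are shared with Oas1g. Oasl1 and Oas2 were not called by edgeR with all libraries in. Oas2 was called for AAV-shA4 in 1 of 9 fits without 1 library and in 2 of 7 other settings, and Oasl1 between the time points in 1 of 7 fits without 1 library. DESeq2 called 2 of 4 in each SCA7 group. Between the time points 0 of 4 were called by edgeR's quasi-likelihood test and by DESeq2, with 2 at an unadjusted p under 0.05.

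Of the members, 6 belong to the ubiquitin and ISG15 systems, and with all libraries in, edgeR's calls among them were between the time points. Isg15 is a ubiquitin-like modifier, Usp18 removes it, Herc6 attaches it, and Trim25, Trim30a and Dtx3l are ubiquitin ligases. In the SCA7 groups edgeR's quasi-likelihood test called 0 of 6, and DESeq2 called 1 in each. At an unadjusted p under 0.05 there were 5 for AAV-shSCR and 3 for AAV-shA4. Isg15, Usp18, Herc6 and Trim30a were each called with AAV-shSCR in 1 of 9 fits without 1 library. Trim30a was called with AAV-shA4 in 1 of 9 such fits. In other settings Trim30a was called in 2 of 8 with AAV-shSCR and 2 of 7 with AAV-shA4. The difference between these comparisons was not tested. In untreated WT mice 3 of 6 were called between the time points, Herc6, Trim30a and Dtx3l, the last with 0.40 ± 0.14 (SE). Dtx3l was called in 2 of 7 fits without 1 library and in 4 of 7 other settings.

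Herc6 stood at 1.81, 1.72 and 2.46 CPM in untreated and 2.17, 2.26 and 2.83 CPM in AAV-shA4-treated WT mice of 9 weeks. At 25 weeks it stood at 3.23, 2.495, 3.18 and 3.48 CPM in untreated WT mice, 4.07, 4.70, 3.14, 4.00 and 4.04 CPM with AAV-shSCR and 4.64, 3.40, 4.20, 3.46 and 3.05 CPM with AAV-shA4. The untreated groups did not overlap, with WT mouse 2 of 25 weeks just above WT mouse 3 of 9 weeks. At 25 against 9 weeks Herc6 had a log2 fold change of 0.63 ± 0.17 (SE) (adjusted p = 0.0111 by edgeR's quasi-likelihood test), and the call was lost without untreated WT mouse 1 or 2 of 9 weeks, at 0.57 and 0.54.

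Trim30a stood at 2.24, 2.44 and 2.10 CPM in untreated and 2.99, 2.74 and 2.92 CPM in AAV-shA4-treated WT mice of 9 weeks, and the treated mice were all above. At 25 weeks it stood at 2.83, 3.66, 3.69 and 3.72 CPM in untreated WT mice, 4.84, 6.03, 4.71, 3.42 and 4.38 CPM with AAV-shSCR and 5.13, 5.39, 4.95, 4.19 and 3.60 CPM with AAV-shA4. Untreated WT mouse 1 was apart from the other 3 of its group and still above the untreated mice of 9 weeks. Between the time points the log2 fold change was 0.62 ± 0.16 (SE) (adjusted p = 0.00972), and for AAV-shA4 at 9 weeks 0.35 ± 0.15 (SE) (adjusted p = 0.432), by edgeR's quasi-likelihood test.

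Of the 5 sensors of RNA and DNA, 2 were called with AAV-shSCR, Eif2ak2 and Zbp1, 1 with AAV-shA4, Eif2ak2, and 1 between the time points, Ifih1. Eif2ak2 encodes PKR, a kinase that binds double-stranded RNA and stops translation. It stood at 11.4, 13.5, 10.2, 10.04 and 11.5 CPM with AAV-shSCR, 11.3, 13.1, 10.4, 10.5 and 10.96 CPM with AAV-shA4 and 6.49, 6.74, 9.08 and 8.33 CPM in untreated WT mice of 25 weeks. In both SCA7 groups every mouse was above every WT mouse, and within each group mouse 2 was the highest. Eif2ak2 had a log2 fold change of 0.57 ± 0.11 (SE) (adjusted p = 0.00224) with AAV-shSCR and 0.56 ± 0.11 (SE) (adjusted p = 0.00275) with AAV-shA4, by edgeR's quasi-likelihood test. At 9 weeks it stood at 5.54, 6.97 and 6.35 CPM in AAV-shA4-treated and 5.21, 6.18 and 6.97 CPM in untreated WT mice, which overlapped.

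Ifih1 encodes MDA5, a sensor of long double-stranded RNA. In untreated WT mice it stood at 4.19, 4.29 and 5.45 CPM at 9 weeks and 6.32, 6.72, 6.75 and 8.62 CPM at 25 weeks, without overlap and with mouse 4 of 25 weeks the highest. AAV-shA4-treated WT mice of 9 weeks stood at 4.73, 5.39 and 5.47 CPM, and SCA7 mice at 9.59, 9.52, 8.18, 7.75 and 8.26 CPM with AAV-shSCR and 8.48, 10.7, 8.77, 7.78 and 8.70 CPM with AAV-shA4. At 25 against 9 weeks Ifih1 had a log2 fold change of 0.61 ± 0.13 (SE) (adjusted p = 0.00161 by edgeR's quasi-likelihood test). In SCA7 mice against WT mice of their time point the fold changes were 0.29 for AAV-shSCR and 0.33 for AAV-shA4, not called. Zbp1, a sensor of nucleic acids in the Z form, had 1.16 ± 0.36 (SE) with AAV-shSCR at a low level of 0.696 to 2.12 CPM, and the groups overlapped. Its call stood in 3 of the 9 fits that left out 1 library.

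Among the 3 ADP-ribosylating enzymes Parp9, Parp12 and Parp14, Parp12 was called with both hairpins, at 0.51 ± 0.12 (SE) with AAV-shSCR and 0.49 ± 0.12 (SE) with AAV-shA4, with all SCA7 mice above all WT mice. Parp14 stood at 3.55, 4.07 and 3.58 CPM in untreated and 4.56, 4.21 and 5.27 CPM in AAV-shA4-treated WT mice of 9 weeks, the treated mice all above. At 25 weeks it stood at 3.98, 5.68, 6.41 and 6.71 CPM in untreated WT mice, 7.85, 9.86, 6.41, 6.50 and 6.28 CPM with AAV-shSCR and 7.84, 8.86, 8.13, 6.48 and 7.33 CPM with AAV-shA4. Untreated WT mouse 1 of 25 weeks lay within the range of the untreated mice of 9 weeks, and the other 3 were above it. The log2 fold change was 0.60 ± 0.17 (SE) between the time points (adjusted p = 0.0141) and 0.32 ± 0.14 (SE) for AAV-shA4 at 9 weeks (adjusted p = 0.417), by edgeR's quasi-likelihood test. The first call was lost without untreated WT mouse 1 or 3 of 9 weeks, both at 0.57. Parp9 and Dtx3l overlap on opposite strands, over 9.40% of the exon bases of Parp9, and the sources used here do not say whether reads were counted by strand.

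The 3 guanylate-binding proteins are GTPases that attack the membranes around pathogens and respond most to interferon gamma. With AAV-shSCR 2 of 3 were called, Gbp3 at 0.52 ± 0.14 (SE) and Gbp7 at 0.45 ± 0.12 (SE). With AAV-shA4 in SCA7 mice edgeR's quasi-likelihood test called 0 of 3, with 2 at an unadjusted p under 0.05, and DESeq2 called 0. Gbp2 stood at 5.51, 4.37 and 16.2 CPM in AAV-shA4-treated WT mice of 9 weeks, where mouse 3 had the highest value of all 20 mice. Rsad2 (viperin), Cmpk2 and Samhd1, enzymes that act on nucleotides, had 0 of 3 called in both SCA7 groups and between the time points by edgeR's quasi-likelihood test. At an unadjusted p under 0.05 there were 2, 2 and 3, and DESeq2 called 1, 0 and 1.

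The 8 remaining members are membrane, secreted and other induced proteins. With AAV-shSCR 7 of 8 were called and with AAV-shA4 5 of 8, all higher, and between the time points 0 of 8 by edgeR's quasi-likelihood test and DESeq2, with 1 at an unadjusted p under 0.05. Ifi27l2a, a small hydrophobic protein of the mitochondrial membrane, had the largest fold change of the members against WT mice. It stood at 6.52, 4.14, 3.29, 3.13 and 4.86 CPM with AAV-shSCR, 4.37, 4.56, 3.28, 2.73 and 3.35 CPM with AAV-shA4 and 1.5001, 1.43, 2.07 and 2.12 CPM in untreated WT mice of 25 weeks. All SCA7 mice were above all WT mice, and AAV-shSCR-treated mouse 1 was the highest. Ifi27l2a had a log2 fold change of 1.303 ± 0.22 (SE) (adjusted p = 0.000603) and 1.05 ± 0.22 (SE) (adjusted p = 0.00387) by edgeR's quasi-likelihood test. At 9 weeks it stood at 1.33, 1.24 and 1.59 CPM in AAV-shA4-treated and 0.817, 0.827 and 1.89 CPM in untreated WT mice, which overlapped.

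Ifi27, a relative that lies 1928 bases away on chromosome 12, stood at 45.2, 42.4, 34.2, 34.4 and 38.5 CPM with AAV-shSCR and 47.5, 47.1, 29.1, 35.3 and 46.3 CPM with AAV-shA4. In untreated WT mice it stood at 22.1, 26.4, 26.7 and 29.1 CPM at 25 weeks and 18.5, 20.1 and 28.8 CPM at 9 weeks, and with AAV-shA4 at 9 weeks at 17.2, 24.2 and 20.7 CPM. All SCA7 mice were above the WT mice of their time point, AAV-shA4-treated mouse 3 by less than 1 CPM. Ifi27 had a log2 fold change of 0.58 ± 0.13 (SE) (adjusted p = 0.00623) and 0.66 ± 0.13 (SE) (adjusted p = 0.00262), and the AAV-shA4 difference at 25 minus that at 9 weeks was 0.78 ± 0.23 (SE) (adjusted p = 0.0583), by edgeR's quasi-likelihood test.

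Xaf1, a binding partner of the apoptosis inhibitor XIAP, stood at 7.26, 7.82, 6.26, 6.59 and 6.28 CPM with AAV-shSCR, 6.37, 8.29, 6.54, 5.87 and 6.63 CPM with AAV-shA4 and 3.81, 4.17, 4.94 and 4.90 CPM in untreated WT mice of 25 weeks. The WT mice lay together below all SCA7 mice. Xaf1 had a log2 fold change of 0.62 ± 0.11 (SE) (adjusted p = 0.00104) and 0.60 ± 0.11 (SE) (adjusted p = 0.00146) by edgeR's quasi-likelihood test. At 9 weeks it stood at 3.56, 4.03 and 3.49 CPM in AAV-shA4-treated and 3.23, 3.42 and 3.87 CPM in untreated WT mice, which overlapped.

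Rtp4, a chaperone that carries receptors from the Golgi to the cell surface, stood at 5.46, 5.86, 4.74, 3.83 and 4.65 CPM with AAV-shSCR, 5.11, 5.52, 4.06, 3.75 and 3.55 CPM with AAV-shA4 and 2.21, 2.18, 2.99 and 3.30 CPM in untreated WT mice of 25 weeks. Again all SCA7 mice were above all WT mice. Rtp4 had a log2 fold change of 0.88 ± 0.17 (SE) (adjusted p = 0.00161) and 0.72 ± 0.17 (SE) (adjusted p = 0.00760) by edgeR's quasi-likelihood test. At 9 weeks the AAV-shA4-treated mice stood at 2.53, 2.53 and 3.17 CPM and the untreated mice at 2.41, 2.52 and 2.93 CPM, and its difference between the time points was 0.023. Of its stretches of 49 bases, 11.7% are shared with Gm45338.

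Ifi35, a cytoplasmic protein induced by interferon, stood at 4.75, 5.30, 4.64, 4.87 and 4.28 CPM with AAV-shSCR, 4.20, 3.99, 4.18, 3.30 and 4.49 CPM with AAV-shA4 and 2.85, 3.34, 3.71 and 4.13 CPM in untreated WT mice of 25 weeks. The AAV-shSCR-treated mice were all above the WT mice, while the AAV-shA4-treated mice overlapped both other groups. The log2 fold change was 0.45 ± 0.11 (SE) with AAV-shSCR (adjusted p = 0.0132) and −0.24 ± 0.11 (SE) between AAV-shA4 and AAV-shSCR (adjusted p = 0.594), by edgeR's quasi-likelihood test. At 9 weeks it stood at 3.21, 2.97 and 3.34 CPM in AAV-shA4-treated and 2.65, 3.24 and 3.54 CPM in untreated WT mice. An antisense gene, Gm11626, covers 16.8% of its exon bases, and reads of the 2 cannot be told apart if strand was not used. Of the other members of this group, Lgals3bp, a secreted glycoprotein, had 0.71 ± 0.18 (SE) and 0.63 ± 0.18 (SE), and Ifi44 was called with AAV-shSCR at 0.69 ± 0.22 (SE). Of the 9 fits that left out 1 library, Lgals3bp was called with AAV-shA4 in 3 and Ifi44 with AAV-shSCR in 2. Bst2, which tethers budding virus, was not called.

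**Figure D2:**
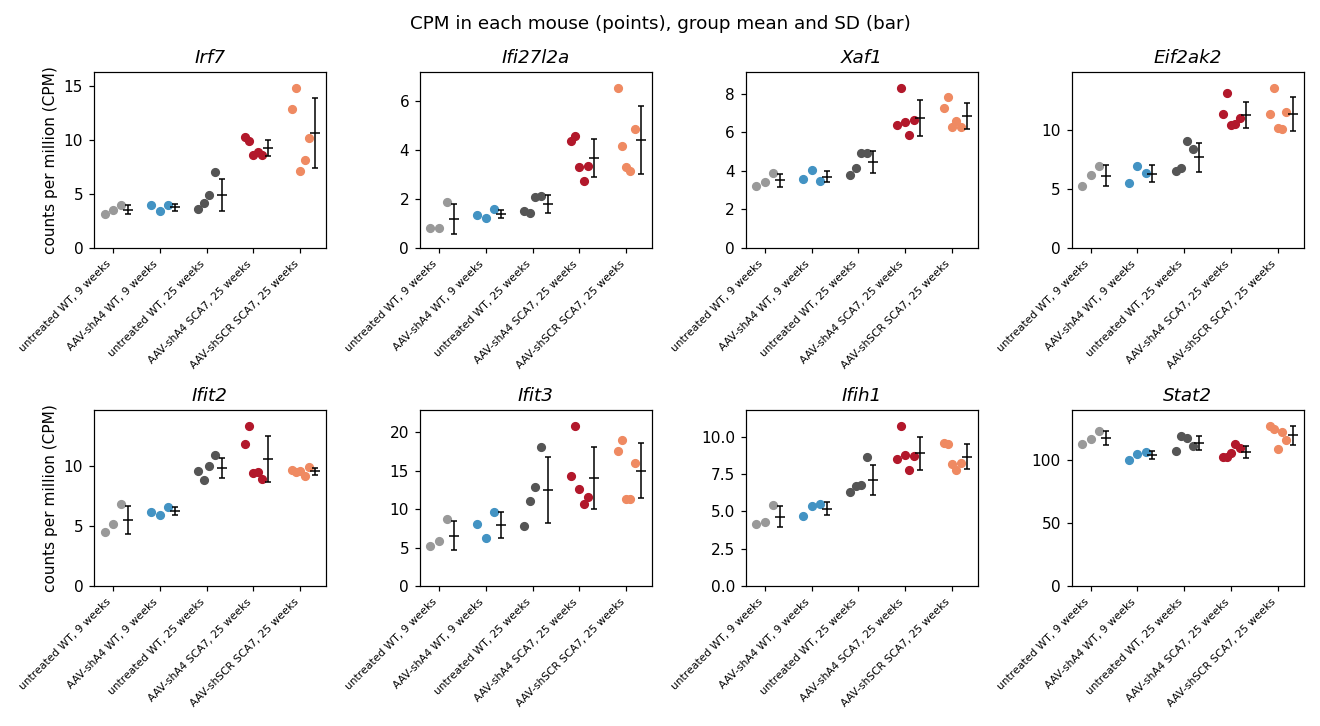
CPM of Irf7, Ifi27l2a, Xaf1, Eif2ak2, Ifit2, Ifit3, Ifih1 and Stat2 in the 20 mice, with 1 point per mouse and a bar for the mean ± SD of each of the 5 groups. Irf7, Ifi27l2a, Xaf1 and Eif2ak2 are higher in all SCA7 mice than in WT mice of 25 weeks, and Ifit2 is higher in all mice of 25 weeks than in those of 9 weeks.

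**Figure D3:**
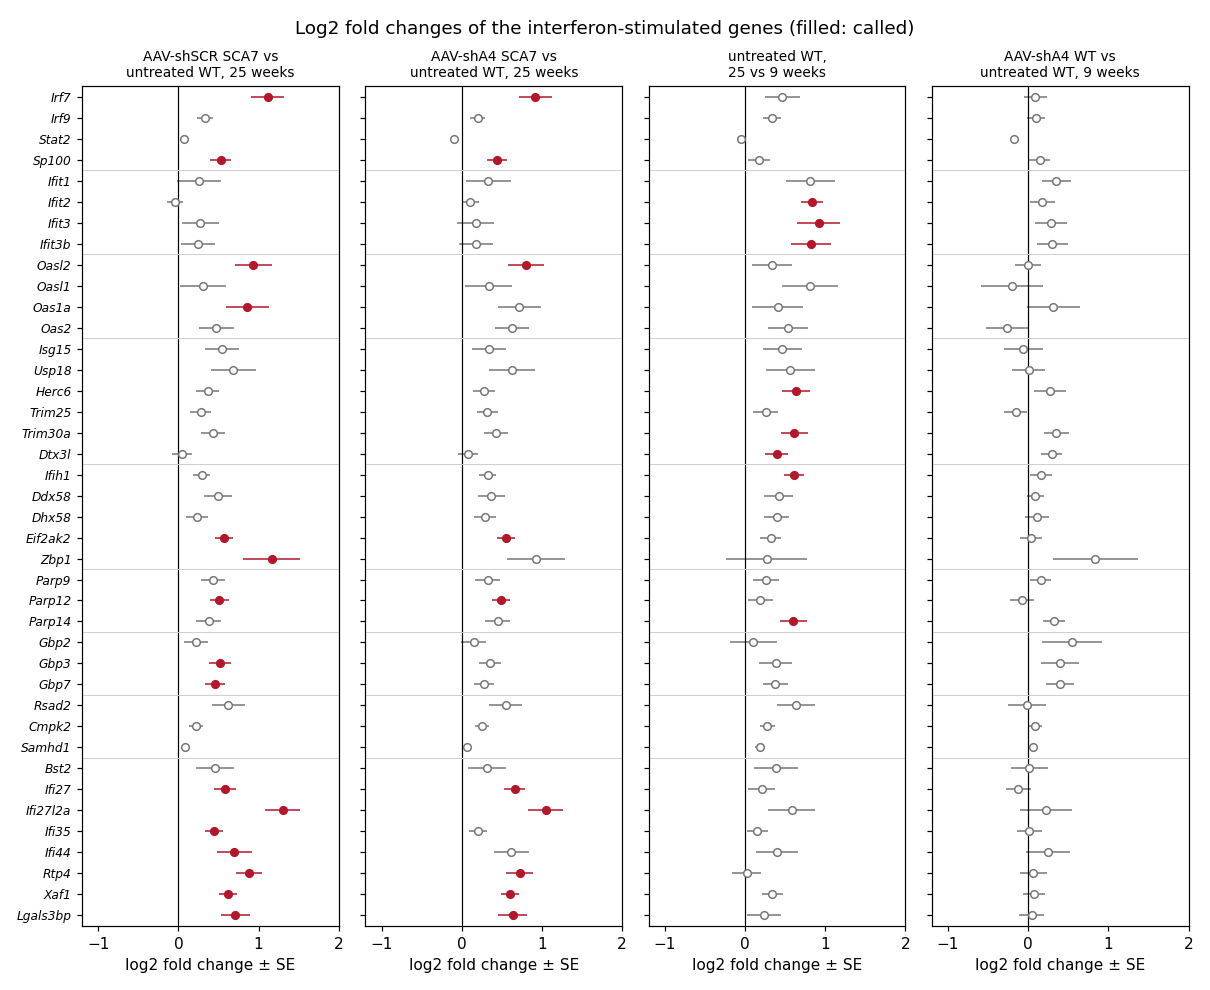
Log2 fold change ± SE of the 40 members against untreated WT mice with AAV-shSCR, with AAV-shA4 in SCA7 mice and with AAV-shA4 in WT mice, and between untreated mice of 25 and 9 weeks. Filled points are called members: 16, 10, 0 and 8.

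Other genes known to be induced by interferon were taken from lists of their own. Of 70 listed, 61 could be tested at 25 weeks, and 11 were called with AAV-shSCR and 9 with AAV-shA4, all higher. Psme1, a proteasome activator subunit, had 0.49 and 0.42, and the DNA-binding proteins Mndal and Ifi203 had 0.96 and 0.86 with AAV-shSCR and 1.00 and 0.84 with AAV-shA4. Of 16 genes for MHC class I and its loading, which present peptides to T cells, 8 were called with AAV-shSCR and 6 with AAV-shA4, all higher. H2-K1 stood at 67.8, 49.4, 44.8, 44.1 and 44.7 CPM with AAV-shSCR, 53.1, 59.6, 42.7, 46.7 and 50.03 CPM with AAV-shA4 and 31.1, 33.5, 30.9 and 31.5 CPM in untreated WT mice of 25 weeks. All SCA7 mice were above all WT mice, and the log2 fold changes were 0.66 ± 0.12 (SE) and 0.67 ± 0.11 (SE). Between the time points 11 of 64 tested other induced genes were called higher, with Zc3hav1, an antiviral zinc finger protein, at 0.91 ± 0.10 (SE). In that comparison 0 of 16 MHC class I genes were called by edgeR's quasi-likelihood test, with 4 at an unadjusted p under 0.05 and 1 called by DESeq2. For AAV-shA4 in WT mice of 9 weeks, 15 of 16 MHC class I genes were above 0, with a median of 0.39. Of 55 tested other induced genes 41 were above 0 there, with a median of 0.17. EdgeR's quasi-likelihood test and DESeq2 called 0 in both lists, with 5 and 8 at an unadjusted p under 0.05.

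At 9 weeks AAV-shA4-treated WT mouse 3 was the highest of the 6 mice in several genes, chosen after their values were seen. The chemokines Cxcl9 and Cxcl10, which attract T cells, stood at 0.326, 0.0263 and 6.52 CPM and 0.299, 0.237 and 5.10 CPM in mice 1 to 3, and the MHC class II chain Cd74 at 11.002, 11.8 and 57.5 CPM. In untreated mice Cxcl9 stood at 0.0645, 0.0870 and 0.0624 CPM, Cxcl10 at 0.280, 0.435 and 0.479 CPM and Cd74 at 5.85, 8.35 and 9.70 CPM. The summed CPM of 20 markers of T and NK cells was 2.17, 2.58 and 10.9 in the AAV-shA4-treated and 1.94, 1.91 and 2.29 in the untreated mice. For 12 markers of neutrophils and monocytes it was 14.4, 16.4 and 30.97 against 15.03, 17.5 and 17.1. Over the 20 mice the most abundant of these markers were Cd5 and Lyz2, and the defining markers Gzma and Ly6g had at most 3 counts in any library. The 20 microglia markers summed to 305, 294 and 381 CPM against 291, 295 and 310.2 CPM, and mouse 3 was again the highest. Its sums were also the highest of the 6 mice for B and plasma cells and for meninges, and the lowest for oligodendrocytes and choroid plexus. For B and plasma cells and oligodendrocytes the other 2 treated mice lay to the same side of the untreated mice. All 7 MHC class II genes had a log2 fold change above 0 in this comparison, with a median of 1.63. EdgeR's quasi-likelihood test called 0 of them, with 4 at an unadjusted p under 0.05, and DESeq2 called 0. Without this mouse 0 of the 40 members were called by edgeR, as with it, and the part of its marker levels in the members' values was not tested.

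Markers of cell types were summed in each mouse beside the results of 25 weeks. The summed CPM of 20 microglia markers, none of which was at 0, was 377, 340.5, 346 and 333 in untreated WT mice, 445, 361, 346, 339.9 and 331 with AAV-shSCR and 361, 440.3, 332, 353 and 345 in SCA7 mice with AAV-shA4. EdgeR's quasi-likelihood test called 0 of 20 in both SCA7 groups, with 2 at an unadjusted p under 0.05 in each, and DESeq2 called 0. The highest sums were those of AAV-shSCR-treated mouse 1 and AAV-shA4-treated mouse 2. T and NK cell markers summed to 3.19, 2.49, 2.97, 2.41 and 3.19 CPM with AAV-shSCR, 2.86, 2.83, 2.12, 4.19 and 2.82 CPM with AAV-shA4 and 2.21, 2.76, 2.11 and 1.60 CPM in WT mice. Of the 5 that could be tested, 3 were above 0 and 2 below with AAV-shSCR, and the receptor chain Il2rb, called higher at 1.25 ± 0.36 (SE), was the 1 at an unadjusted p under 0.05. With AAV-shA4 4 were above 0 and 1 below, with 2 at an unadjusted p under 0.05 and 0 called by edgeR's quasi-likelihood test and by DESeq2.

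Markers of Purkinje cells, oligodendrocytes and Bergmann glia and astrocytes were lower in sum in both SCA7 groups. Of 11 Purkinje cell markers, 9 were called lower with AAV-shSCR and 8 with AAV-shA4, with median log2 fold changes of −0.45 and −0.41. Itpr1 was the most abundant, none was at 0, and the summed CPM was 8794, 8406, 8699, 7933 and 8855 with AAV-shSCR and 8054, 8760.1, 9336, 9016 and 8610.3 with AAV-shA4, against 11325, 12760.4, 11879.6 and 11830.4 in WT mice. Of 11 oligodendrocyte markers, led by Mbp, 5 were called lower with AAV-shSCR and 4 with AAV-shA4. They summed to 4953, 4957, 5095, 4717 and 4233 CPM and 4705, 4987, 5129, 5349 and 5088 CPM, against 6844, 5784, 6704 and 5934 CPM. Of 12 markers of Bergmann glia and astrocytes, 11 were below 0 in each SCA7 group. The most abundant, the glycolytic enzyme Aldoc, was the 1 called lower in each, at −0.66 ± 0.06 (SE) with AAV-shSCR and −0.64 ± 0.06 (SE) for AAV-shA4. They summed to 6669.6, 6732, 6326 and 6828 CPM in WT mice, 5656, 5202, 5459, 5205 and 5348 CPM with AAV-shSCR and 5245, 5872, 5681, 5718 and 5252 CPM in SCA7 mice with AAV-shA4. In all 3 lists every SCA7 mouse was below every WT mouse in sum. Among single genes, 9.22% were all lower with AAV-shSCR and 7.82% with AAV-shA4.

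Endothelial markers went both ways. Of 12, led by Flt1 and none at 0, 9 were above 0 for AAV-shSCR and 8 for AAV-shA4, where 7 and 9 had an unadjusted p under 0.05. Emcn, a surface sialoprotein, was called higher at 0.52 ± 0.08 (SE) with AAV-shSCR and 0.49 ± 0.08 (SE) with AAV-shA4. Cldn5, a tight junction protein, was called lower at −0.40 ± 0.08 (SE) and −0.63 ± 0.08 (SE). The sums were 327, 323, 301, 323 and 292 CPM with AAV-shSCR, 302, 296, 311, 325 and 324 CPM with AAV-shA4 and 340.0, 326, 334 and 297 CPM in WT mice, and the groups overlapped. Granule cell markers, led by Cbln3, were below 0 for 6 of 9 with AAV-shSCR and 7 of 9 with AAV-shA4. There were 5 and 8 at an unadjusted p under 0.05 and 3 and 4 at an adjusted p under 0.05 by edgeR, and 0 passed the limit on fold change with edgeR's quasi-likelihood test or DESeq2. They summed to 6328, 6300.1, 6483, 6456 and 6262 CPM and 5590.3, 6255, 6072, 6320.1 and 6247 CPM, against 6003, 7132, 7008 and 6907 CPM in WT mice, of which mouse 1 lay among the SCA7 mice. The part of such shifts in the members' values was not tested.

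Choroid plexus and blood markers varied widely between mice of 1 group. Choroid plexus markers, led by Ttr, summed to 3345, 49.7, 531, 345 and 2940.3 CPM in AAV-shA4-treated SCA7 mice, 659, 2967, 1963, 2046 and 1775 CPM with AAV-shSCR and 1178, 1055, 1812 and 3885 CPM in WT mice. AAV-shA4-treated mouse 2, with the highest members of its group, had the lowest sum of all. Blood markers, led by Hbb-bs, summed to 27.0, 3.03, 10.2, 16.2 and 2.17 CPM with AAV-shSCR, 5.13, 5.34, 6.37, 4.38 and 8.27 CPM with AAV-shA4 and 2.25, 3.08, 5.18 and 4.00 CPM in WT mice, and the groups overlapped. With AAV-shSCR all 5 were above 0, with a median of 1.49 and 4 at an unadjusted p under 0.05. EdgeR called Hbb-bs higher there and DESeq2 called 3. All 5 were above 0 with AAV-shA4 too, with a median of 0.76, 0 at an unadjusted p under 0.05 and 0 called by edgeR's quasi-likelihood test or DESeq2. The pericyte channel Kcnj8 was called lower with AAV-shSCR, at −0.40 ± 0.11 (SE). Their part was not tested either.

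Levels of different genes were compared as CPM per kb of median annotated transcript length, in untreated WT mice of 25 weeks. Stat2 had the highest level, 137, followed by Ifi27 at 36.8 and Lgals3bp at 35.3, and Zbp1 had the lowest, 0.293. The median level of the 40 members was 4.18, against 10.2 for 17576 protein-coding genes above 0.

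Several members lie beside one another in the genome (GRCm38 coordinates of the annotation). Ifit2, Ifit3, Ifit3b and Ifit1 follow on the plus strand of chromosome 19 with 7112, 19239 and 27470 bases between them, and Gbp7, Gbp3 and Gbp2 on chromosome 3 with 9877 and 47393. Oasl2 and Oasl1 are 11006 bases apart on chromosome 5, and Rsad2 and Cmpk2 12752 bases apart on chromosome 12, on opposite strands. Neighbours did not always share a call: Gbp3 and Gbp7 were called with AAV-shSCR and Gbp2 was not.

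Promoters of 31 of the 40 members were found in the RefSeq table (build GRCm38.p6), with 250 bases before and 50 after the start. Oas2, Usp18, Dhx58, Zbp1, Parp9, Parp14, Ifi27, Ifi27l2a and Rtp4 had no entry. They were searched on both strands for GAAANNGAAA, a core of the interferon-stimulated response element. It was found in 15 of 31 (48.4%), against 3.65% of 11741 tested genes with a promoter and 3.99% of all 27025. With 1 base of the core allowed to differ, 87.1% of members held it, against 32.2% and 38.9%. Of the called members with a promoter the exact core was in 4 of 12 with AAV-shSCR, 1 of 7 with AAV-shA4 and 4 of 7 between the time points. Of those not called it was in 11 of 19, 14 of 24 and 11 of 24. Irf7 had none, and no match says only that these letters are not in this window.

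Pieces of promoters are shown, 5′ to 3′ on the strand of the gene with the core in capitals, for the 3 IFIT members with 2 cores each, of which Ifit3 and Ifit3b were called between the time points and Ifit1 was not. Ifit2, called there in every fit that left out 1 library, had no exact core in either of its promoter entries. They are chr19:34640769-34640848 (plus strand) for Ifit1, chr19:34583372-34583451 (plus strand) for Ifit3 and chr19:34607768-34607847 (plus strand) for Ifit3b. The pieces of Ifit3 and Ifit3b are identical.
Ifit1: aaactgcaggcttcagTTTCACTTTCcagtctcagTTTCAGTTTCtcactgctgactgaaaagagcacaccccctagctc
Ifit3: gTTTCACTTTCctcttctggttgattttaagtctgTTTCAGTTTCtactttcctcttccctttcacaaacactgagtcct
Ifit3b: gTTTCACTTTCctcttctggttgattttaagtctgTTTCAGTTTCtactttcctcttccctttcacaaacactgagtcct

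Pieces of 3 members called in a comparison follow. Oas1a, at chr5:120907526-120907574 (minus strand), and Gbp7, at chr3:142530248-142530327 (plus strand), were called with AAV-shSCR, and Trim30a, at chr7:104465194-104465264 (minus strand), between the time points. In Oas1a 2 cores overlap.
Oas1a: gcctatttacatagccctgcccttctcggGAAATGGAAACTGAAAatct
Gbp7: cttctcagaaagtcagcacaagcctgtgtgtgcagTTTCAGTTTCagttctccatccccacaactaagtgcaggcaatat
Trim30a: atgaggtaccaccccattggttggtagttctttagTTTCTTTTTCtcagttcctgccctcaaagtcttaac

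Isg15 and Stat2 are shown as members with a core that were not called with all libraries in, at chr4:156200840-156200919 (minus strand) and chr10:128270248-128270320 (plus strand). In Isg15 3 cores overlap. Xaf1, called with both hairpins, held no exact core, and its piece at chr11:72301583-72301628 (plus strand) has in capitals 2 overlapping matches in which 1 base differs.
Isg15: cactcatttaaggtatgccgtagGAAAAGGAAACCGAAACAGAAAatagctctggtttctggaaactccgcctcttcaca
Stat2: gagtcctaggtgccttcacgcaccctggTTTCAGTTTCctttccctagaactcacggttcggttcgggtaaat
Xaf1: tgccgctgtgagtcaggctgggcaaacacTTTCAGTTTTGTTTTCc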

How the data were processed

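Per the labels, cerebellar RNA of 20 mice was sequenced, and groups were taken from these labels. The authors deposited raw counts per gene, from stranded single reads trimmed with cutadapt 1.10, freed of ribosomal RNA with Bowtie2 2.2.8, mapped to mm10 with STAR 2.5.3a and counted with HTSeq 0.6.1p1. Symbols, gene types and positions came from GENCODE M21, which lacks 260 genes of the table. Those were left out.

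In R 4.3.3, edgeR 4.0.16 was used with TMM factors, the quasi-likelihood test and, as a filter, filterByExpr (count 10, total 15). Libraries of 9 weeks, of 25 weeks and all 20 were fitted separately, the last for the comparisons across time points, with Benjamini-Hochberg adjustment across all protein-coding genes that were tested. DESeq2 1.42.0, other normalization, filters and fits, and leaving out each library were alternatives. The procedure was tested on simulated data.

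Values in every mouse are given for Irf7, Irf9, Stat2, the 5 called members with the smallest adjusted p in each comparison and those with the largest changes, or the 3 with the smallest p where none was called; of other lists, called genes were named, at most 5 a list. Members and lists were chosen with earlier results of these data known. P-values measure the spread between mice, with a common biological coefficient of variation of 0.0729 at 9 weeks and 0.0790 at 25 weeks. Some genes of the lists are not reported here by name.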

Additional observations from a re-analysis of the deposited data

Results flagged for a closer look

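In 90 groups of 4 or 5 mice, each being a value of a named member, the median difference over the members or the summed CPM of a marker list in 1 condition, 7 had a mouse far from the others of its group. Chance sets about 1 in 20 groups apart in this way.

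Trim30a stood at 2.83 CPM in untreated WT mouse 1 of 25 weeks, against 3.66, 3.69 and 3.72 in the other 3. The microglia markers summed to 440.3 CPM in AAV-shA4-treated SCA7 mouse 2, against 332 to 361 in the others of its group, and to 445 CPM in AAV-shSCR-treated mouse 1, against 331 to 361. In AAV-shSCR-treated mouse 3, B and plasma cell markers summed to 2.01 CPM, against 1.03 to 1.25, and neutrophil and monocyte markers to 31.97 CPM, against 14.4 to 19.3. Forebrain neuron markers summed to 9.56 CPM in AAV-shSCR-treated mouse 1, against 10.4 to 10.6, and to 14.8 CPM in untreated WT mouse 1 of 25 weeks, against 10.5 to 10.7. The part of these mice's marker levels in the members' values was not tested.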

How the results depend on the processing

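Under other size factors, other filters on low counts, all genes of the table, DESeq2, adjusted p alone and other sets of groups in the fit, the number of members called stayed within 1.5 times its value in 5 of the 6 comparisons. In the AAV-shA4 difference of 25 minus 9 weeks DESeq2 called 1 member where edgeR called 0. Leaving out 1 library gave 0 to 0 members for AAV-shA4 at 9 weeks, 10 to 19 for AAV-shSCR, 6 to 13 for AAV-shA4 in SCA7 mice, 0 to 0 between the hairpins, 3 to 15 between the time points and 0 to 1 for the difference of 25 minus 9 weeks. No share over all genes is given beside these counts, and the causes were not tested.

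In an alternative chosen after the values were seen, AAV-shSCR-treated mice 1 and 2, those with the highest members of their group, were left out together, a choice that by itself lowers the group. Then 5 members were called with AAV-shSCR in place of 16. Between the hairpins the members' median stood at 0.10, Irf7 at 0.13 (adjusted p = 0.910 by edgeR) and Irf9 at 0.038 (adjusted p = 0.933 by edgeR), from below 0, which the choice of mice from 1 group favours and which bears on no direction. Irf9 also turned for AAV-shA4 at 9 weeks without AAV-shA4-treated WT mouse 2, at −0.026 (adjusted p = 0.954 by edgeR), and ranged from there to 0.17 as single libraries were left out. The cause was not tested.

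With the replicate number as a replicate block, 0, 14, 12, 0, 9 and 0 members were called in the comparisons in the order above. The numbers do not pair the mice: of 34 pairs with the same number 7 had a correlation over 0.1, with a median of −0.0073, against −0.0039 for other numbers. The share of members' promoters with the response element core was 48.4%, 87.1% with 1 base allowed to differ and 38.7% before the start alone. Ligands lay below what this depth can test.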
